A study of Mus musculus with 19 samples.

Results

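Adipokines are signalling proteins that fat cells release. The 9 adipokine genes described here were chosen by name: Adipoq, Lep and Retn, which encode adiponectin, leptin and resistin, Rbp4 and Agt, which encode a retinol carrier and angiotensinogen, Apln and Nampt, which encode apelin and an enzyme of NAD synthesis, and Nrg4 and Fgf21, which encode factors associated with brown fat. All 9 were found among the 22180 genes measured, each through 1 transcript cluster, the set of array probes that reads a gene. Values are log2 signals after robust multi-array averaging (RMA), a difference of 1 is a 2-fold difference, and n counts arrays.

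The study removed MED1 from cultured fat cell precursors and from brown fat. MED1 belongs to Mediator, a coactivator complex through which transcription factors reach RNA polymerase II. One experiment had 8 arrays of 3T3-L1, a mouse fibroblast line that becomes fat cells after hormonal stimulation. MED1-KO cells were made with CRISPR/Cas9 and each MED1-KO array held RNA pooled from individual knockout clones, while WT arrays held the parental line. By the sample titles there were 2 arrays each of MED1-KO cells on day 2, WT cells on day 2, MED1-KO cells on day 0 and WT cells on day 0. A second experiment used interscapular brown fat of embryos at E17.5, with 4 arrays of Myf5CreMed1f/f and 3 arrays of Myf5CreMed1f/w, which carried the same Cre with 1 floxed and 1 wild-type allele. Myf5-Cre acts in precursors of skeletal muscle as well as of brown fat, and the comparison sets embryos with both alleles floxed against heterozygous embryos. The other brown fat experiment used mice at 10 weeks, with 2 arrays of AdipoqCreMed1f/f and 2 of Med1f/f, which had floxed alleles and no Cre. Adipoq-Cre is driven by the regulatory region of the adiponectin gene and acts in fat cells. Other cells of the tissue keep Med1 in both mouse models.

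Adipokines act on distant organs or on neighbouring cells, and most are made late in fat cell differentiation under PPARgamma and C/EBPalpha. Adiponectin and leptin report on the state of fat stores, through the receptors Adipor1 and Adipor2 and through Lepr. Resistin is a fat cell product in mice, angiotensinogen is cut by renin and Ace into angiotensin peptides, and apelin acts on the receptor Aplnr. NRG4, a ligand of ERBB4, and FGF21, which needs FGFR1 with its partner KLB, are known as products of active brown fat.

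The 250 bases before the RefSeq transcription start are shown for the 4 genes that passed a test in a comparison of genotypes or days (Retn, Agt, Apln and Nampt) and for Nrg4, which was lower without overlap in both brown fat models. Coordinates are of GRCm38.p6, and sequences are from RefSeq, written 5′ to 3′ on the strand of the gene. Capitals mark matches to the motifs searched.
Retn chr8:3655520-3655769, + strand: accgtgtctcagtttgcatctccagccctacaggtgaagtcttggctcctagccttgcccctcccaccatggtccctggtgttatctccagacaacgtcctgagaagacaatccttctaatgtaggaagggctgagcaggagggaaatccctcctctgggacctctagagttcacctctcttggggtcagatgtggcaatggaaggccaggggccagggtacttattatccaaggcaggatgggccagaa
Agt chr8:124569707-124569956, - strand: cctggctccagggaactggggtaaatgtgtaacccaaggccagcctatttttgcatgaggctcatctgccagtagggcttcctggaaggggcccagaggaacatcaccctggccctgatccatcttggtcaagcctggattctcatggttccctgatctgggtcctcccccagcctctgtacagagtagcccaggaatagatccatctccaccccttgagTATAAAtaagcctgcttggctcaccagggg
Apln chrX:48034854-48035103, - strand: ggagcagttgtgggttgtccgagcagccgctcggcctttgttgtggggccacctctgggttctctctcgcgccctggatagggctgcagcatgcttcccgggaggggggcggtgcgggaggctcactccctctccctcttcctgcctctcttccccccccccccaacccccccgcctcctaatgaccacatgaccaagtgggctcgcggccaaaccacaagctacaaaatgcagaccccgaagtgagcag
Nampt chr12:32820085-32820334, + strand: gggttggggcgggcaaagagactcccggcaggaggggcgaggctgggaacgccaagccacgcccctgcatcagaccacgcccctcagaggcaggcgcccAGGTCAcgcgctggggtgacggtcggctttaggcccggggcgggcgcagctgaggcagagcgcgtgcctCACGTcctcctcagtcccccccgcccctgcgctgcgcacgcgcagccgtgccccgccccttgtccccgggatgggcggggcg
Nrg4 chr9:55283626-55283875, - strand: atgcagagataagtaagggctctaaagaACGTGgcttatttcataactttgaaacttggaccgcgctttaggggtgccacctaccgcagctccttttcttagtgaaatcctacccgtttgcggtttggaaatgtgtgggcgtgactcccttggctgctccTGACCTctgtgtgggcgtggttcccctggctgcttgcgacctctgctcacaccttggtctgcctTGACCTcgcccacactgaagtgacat
Motifs were searched on both strands in all 32851 such windows of the RefSeq table. A C/EBP-type motif, TTGCNNAA, was found in 9.6% of the windows. A nuclear receptor half-site, AGGTCA, was found in 14.0%, and a steroid receptor half-site, TGTTCT, in 16.1%. An E-box, CACGTG, was found in 6.0%, and the hypoxia response core ACGTG, which lies within that E-box, in 16.6%. The TATA box letters TATAAA were found in 12.4%. The Nrg4 window held AGGTCA at -90 and -26 bases from the start, read as TGACCT on the gene's strand, and 1.36% of all windows held 2 or more. The annotated span of Nrg4 reaches base 55283654, which lies within this window, so the -26 match falls inside the annotated gene. Nampt held AGGTCA at -151 and ACGTG at -82, Nrg4 held ACGTG at -222, and Agt held TATAAA at -30. The Retn and Apln windows held none of these letters. The Nampt window was 75.6% G or C with 27 CpG dinucleotides, and the Agt window was 55.6% G or C with 0 CpG. These matches describe the letters only.

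Med1 itself was lower in all 4 MED1-KO cell arrays (7.0 to 7.16) than in the 4 WT arrays (8.23 to 8.55), with a log2 difference of -1.31 ± 0.08 over 4 pairs (limma adjusted p = 0.0011). In Myf5CreMed1f/f embryos Med1 read 6.88 to 7.10, against 6.94 to 7.82 in Myf5CreMed1f/w embryos (adjusted p = 0.37). In AdipoqCreMed1f/f adults it read 5.13 and 5.28, against 5.99 and 6.90 in Med1f/f adults (adjusted p = 0.19). Probe positions were not used here, so these values do not check the deletion itself. Array medians were 4.69 to 4.79 in cells, 3.49 to 3.57 in embryos and 2.87 to 2.89 in adults, so levels are compared only within an experiment. Titles and source labels gave different days for 4 of 8 cell arrays. Those titled day 2 replicate 1 were labelled as not yet stimulated, and those titled day 0 replicate 2 as stimulated. Days are given by the title, and the calls of the 9 genes between days or within a day are also given by the source label. By the source label limma called 0 of 22180 genes on day 2 and in either genotype's response to stimulation. There 490, 650 (WT) and 559 (MED1-KO) had an unadjusted p under 0.05. By the titles it called 59, 2012 and 1265, so every such call below rests on the titles. The lipocalin gene Lcn2 read 9.81 (WT) and 9.44 (MED1-KO) on the arrays titled day 2 replicate 1, and 9.79 and 9.40 in replicate 2. On those titled day 0 it read 4.33 and 4.52 in replicate 1, and 4.88 and 4.62 in replicate 2. For Lcn2 the arrays thus fell together by title and not by source label. The labels do not say whether replicates came from separate cultures or animals. The p-values therefore cover only the spread among the arrays, part of which may be technical.

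On day 2, the resistin gene Retn and the apelin gene Apln were lower in MED1-KO than in WT cells, and the angiotensinogen gene Agt missed the threshold. Of the 9 adipokine genes, 2 were called lower and 0 higher at an adjusted p under 0.05, where 0.234% of all 22180 genes were called lower and 0.0316% higher. The MED1-KO arrays lay below both WT arrays for 7 of the 9, where 18.9% of all genes did so. The median log2 fold change was -0.27 over the 9 genes and -0.01 over all genes.

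Retn gave 4.53 and 4.87 in MED1-KO cells on day 2, against 5.77 and 5.78 in WT cells on day 2. The groups did not overlap, and the WT arrays were nearly equal. The log2 fold change was -1.07 ± 0.16 (2.10-fold lower, limma adjusted p = 0.037). Apln gave 4.77 and 4.95 in MED1-KO cells and 6.15 and 6.67 in WT cells. This was the lowest Apln signal of the 4 cell groups and lay 2.93-fold below WT (log2 fold change -1.55 ± 0.25, limma adjusted p = 0.048). Agt gave 7.27 and 7.72 in MED1-KO cells and 8.86 and 8.47 in WT cells, again without overlap, with a log2 fold change of -1.17 ± 0.19 (limma adjusted p = 0.051, and 0.0039 to 0.046 under 4 of the alternatives). With the replicate number as a block, Retn kept its call (adjusted p = 0.046) and Apln did not (adjusted p = 0.063). Retn was also not called in a fit of all 19 arrays (adjusted p = 0.089), nor Apln after quantile normalization (adjusted p = 0.064). With any 1 of the 4 day 2 arrays left out, the lone array was assumed to vary like the other groups and neither gene was called (adjusted p 0.10 to 0.33 for Retn and 0.07 to 0.38 for Apln), nor was either with days by the source label (log2 fold changes -0.29 and -0.80, adjusted p = 1 for each).

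The other genes differed less, several of them at low signal. Adipoq on 1 MED1-KO array and Lep on 1 WT array lay under the array's lower quartile of all probe sets on day 2. Nrg4 and Fgf21 lay under the array medians of 4.69 to 4.79. Small differences at such signals do not show that these genes were unaffected. Adipoq gave 3.38 and 3.69 in MED1-KO cells on day 2, against 3.74 and 4.19 in WT cells (log2 fold change -0.43 ± 0.17, limma adjusted p = 0.56). The groups did not overlap, and the nearest arrays of the groups were closer than the 2 WT arrays were to each other. Lep gave 3.56 and 3.56 in MED1-KO cells, between the WT values of 3.39 and 3.81. Rbp4, whose product carries retinol in blood, gave 4.86 and 4.60 in MED1-KO cells and 4.91 and 5.10 in WT cells. Nampt, the rate-limiting enzyme of NAD salvage, was bright and overlapped, at 9.26 and 9.58 in MED1-KO cells and 9.57 and 9.47 in WT cells. Nrg4 gave 4.23 in each MED1-KO array, against 4.29 and 4.33 in WT cells. Fgf21 gave 4.31 and 4.10 in MED1-KO cells and 4.44 and 4.35 in WT cells. None of these 6 passed the test, and the 95% interval of the log2 fold change was -0.34 to 0.18 for Nrg4 and -0.53 to 0.33 for Nampt.

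**Figure D1:**
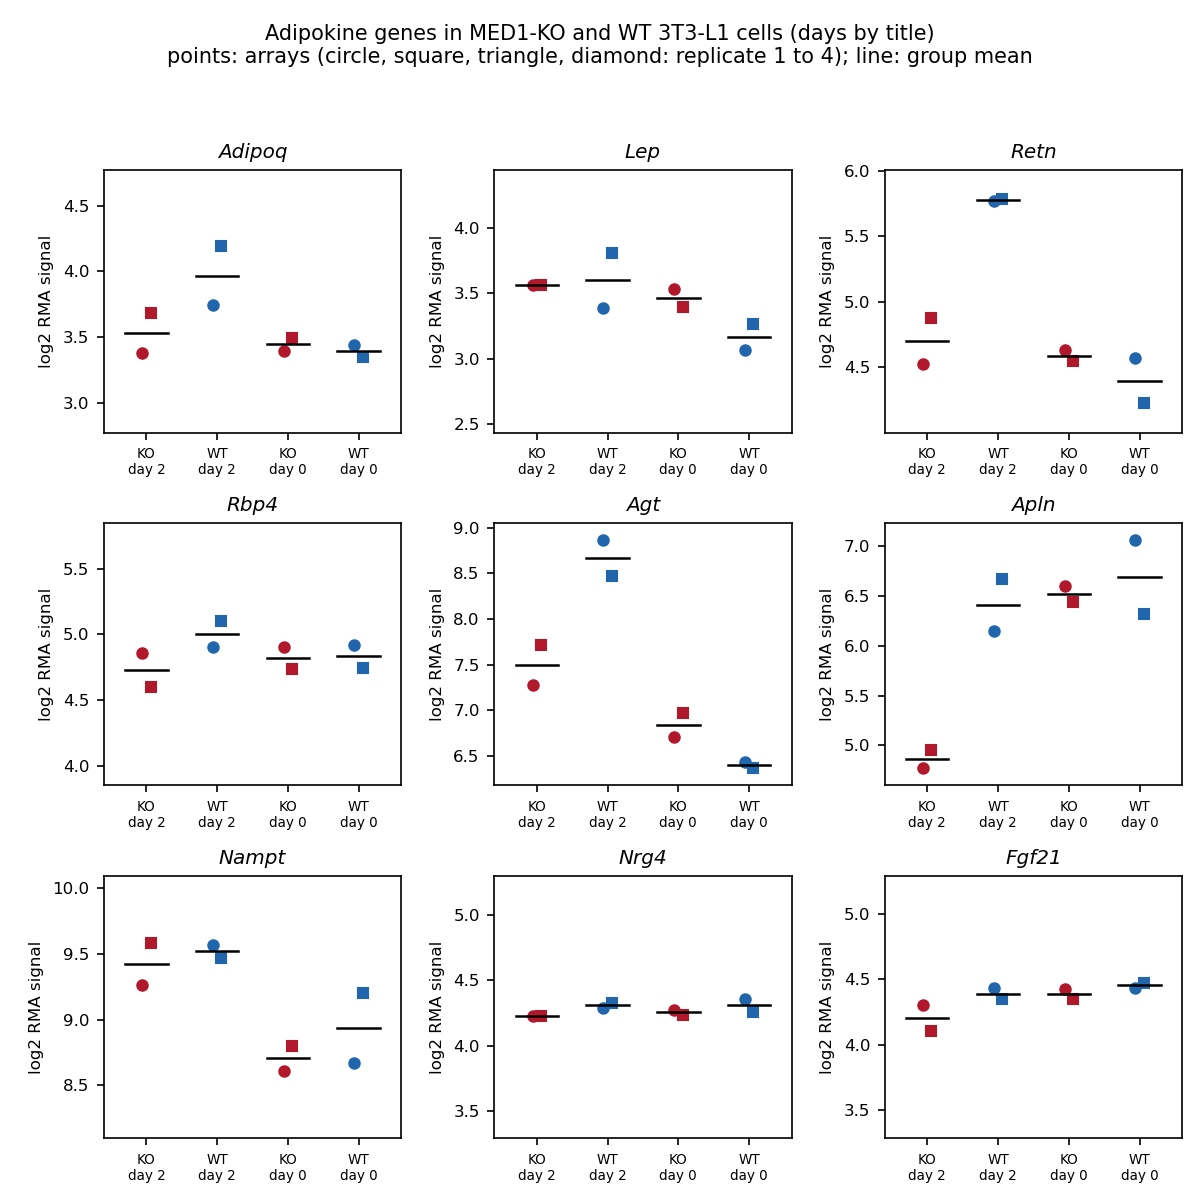
Log2 RMA signal of the 9 adipokine genes in 3T3-L1 cells, 1 panel a gene, with MED1-KO beside WT on day 2 and on day 0 by the sample title (points are arrays, lines are group means, 2 arrays a group; axes cover different levels). Retn stood at 5.77 and 5.78 only in WT cells on day 2, and Apln at 4.77 and 4.95 only in MED1-KO cells on day 2.

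The response to stimulation was set by day 2 against day 0 within a genotype. In WT cells Retn and Agt rose, 2 of the 9 genes, where 3.44% of all genes were called higher. Retn averaged 5.77 ± 0.01 on day 2 and 4.40 ± 0.24 on day 0 (SD, n = 2 each), a log2 fold change of 1.38 ± 0.16 (2.60-fold, limma adjusted p = 0.0009). Agt averaged 8.67 ± 0.27 on day 2 and 6.40 ± 0.05 on day 0 (SD, n = 2 each), a log2 fold change of 2.27 ± 0.19 (4.82-fold, limma adjusted p = 0.00014). Both calls held without each WT array in turn. With days by the source label they read -0.17 and -0.23 (adjusted p = 1 for each), in groups that then hold 1 array of each title day. Adipoq gave 3.74 and 4.19 on day 2, against 3.44 and 3.35 on day 0, where both arrays lay under their own lower quartile of all probe sets. It was at least 1.38-fold higher on day 2 (limma adjusted p = 0.078, and 0.044 with the replicate block). The arrays did not overlap for 5 genes higher and 1 lower, where 26.6% and 22.2% of all genes did so.

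In MED1-KO cells the one adipokine gene that passed was Apln, which fell, where 3.57% of all genes were called lower. Apln gave 4.77 and 4.95 in MED1-KO cells on day 2 and 6.60 and 6.44 on day 0, without overlap. The log2 fold change was -1.67 ± 0.25 (3.17-fold, limma adjusted p = 0.0044), and it held without each MED1-KO array in turn. The arrays of the 9 genes did not overlap for 3 higher and 3 lower, where 24.6% and 23.3% of all genes did so. With days by the source label it read 0.01 (adjusted p = 1). In WT cells Apln gave 6.15 and 6.67 on day 2, and 7.06 and 6.32 on day 0, which overlapped (log2 fold change -0.28 ± 0.25, limma adjusted p = 0.58). Retn gave 4.53 and 4.87 in MED1-KO cells on day 2 and 4.63 and 4.55 on day 0 (log2 fold change 0.11 ± 0.16, limma adjusted p = 0.83). Agt gave 7.27 and 7.72 on day 2 and 6.70 and 6.97 on day 0 (log2 fold change 0.66 ± 0.19, limma adjusted p = 0.087). Nampt gave 9.26 and 9.58 on day 2 and 8.61 and 8.80 on day 0. Its log2 fold change of 0.72 ± 0.19 missed the threshold (limma adjusted p = 0.068) and passed it with the replicate block (adjusted p = 0.031).

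The difference between the genotypes' responses was itself tested, as the MED1-KO response minus the WT response. It was -1.61 ± 0.27 for Agt (limma adjusted p = 0.33), -1.27 ± 0.23 for Retn (adjusted p = 0.37) and -1.39 ± 0.35 for Apln (adjusted p = 0.82). None of the 9 passed, and across 22180 genes none was called (0%), while 941 (4.24%) had a limma p under 0.05 before adjustment. The 3 genes were among these 941, at unadjusted p of 0.000182, 0.000338 and 0.00307 in the order above. The responses of Agt, Retn and Apln are therefore not shown to differ between genotypes across all genes tested.

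On day 0, before stimulation by the titles, limma called 0 of the 9, where 0.185% of all genes were called. The groups did not overlap for 2 genes higher and 1 lower, where 17.9% and 16.1% of all genes did so. Only Agt had an unadjusted p under 0.05, as did 4.88% of all genes. Agt gave 6.70 and 6.97 in MED1-KO cells on day 0, against 6.43 and 6.36 in WT cells on day 0. The MED1-KO arrays were the higher ones, opposite to day 2, with a log2 fold change of 0.44 ± 0.19 (limma unadjusted p = 0.0462, adjusted p = 1). Retn gave 4.63 and 4.55 in MED1-KO cells and 4.57 and 4.22 in WT cells, which overlapped. Over the 4 pairs of MED1-KO and WT arrays, whose differences are the same under either day label, limma called 0 of the 9, where 0.289% of all genes were called. Apln alone had an unadjusted p under 0.05, as did 12.3% of all genes. Apln had pair differences (MED1-KO minus WT) of -1.38 and -1.73 on day 2 and of -0.46 and 0.13 on day 0 (mean -0.86 ± 0.27, limma adjusted p = 0.27). Grouped by the source label without the pairs, the mean was the same and its standard error 0.49 (adjusted p = 1), and 9 genes were called in all, none of them an adipokine gene. Nrg4, Rbp4 and Fgf21 were lower in MED1-KO in 4 of 4 pairs, with pair differences of -0.50 to -0.01, where 10.8% of all genes were lower in 4 of 4.

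Within the cells the order of group means differed by gene. Agt ran from WT day 2 (8.67) through MED1-KO day 2 (7.50) and MED1-KO day 0 (6.83) to WT day 0 (6.40), and no neighbours in that order overlapped. For Retn, WT day 2 (5.77) stood above MED1-KO day 2 (4.70), MED1-KO day 0 (4.59) and WT day 0 (4.40), and those 3 groups overlapped as neighbours. For Apln, WT day 0 (6.69), MED1-KO day 0 (6.52) and WT day 2 (6.41) overlapped, and MED1-KO day 2 (4.86) stood below them. Nrg4 means spanned 4.23 to 4.31 over the 4 groups, less than 0.1.

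Mean log2 signals of the mature fat cell, white fat cell and fibroblast marker lists were lower in MED1-KO than in WT cells on day 2. The 9 measured mature fat cell markers averaged 4.87 and 4.91 in MED1-KO cells, against 5.44 and 5.69 in WT cells. Of these, 7 were lower and 2 higher, and Fabp4, Cidec and Dgat2 were called lower (3 of 9, where 0.234% of all genes were). The white fat cell list was 5.59 and 5.60 in MED1-KO cells, against 6.30 and 6.44 in WT cells. Of its 6 genes 1, Mest, was called lower there (log2 fold change -4.24 ± 0.21, limma adjusted p = 0.00013) and on day 0 (-3.54 ± 0.21, adjusted p = 0.00032). The median log2 fold change over the 6 was -0.14 on day 2, so the list mean rested largely on Mest. On day 0 the list was lower too, at 5.65 and 5.66 in MED1-KO cells against 6.13 and 6.48 in WT cells. The fibroblast list on day 2 was 9.15 and 9.18 in MED1-KO cells, against 9.57 in each WT array, with Dcn and Cd34 called lower (2 of 7). On day 0 it was 9.98 and 10.24 in MED1-KO cells, against 10.30 and 10.53 in WT cells, with Cd34 called lower. On day 2, 3 of its 7 genes were higher and 4 lower, with a median log2 fold change of -0.04. Fabp4, a fatty acid carrier, differed by -2.03 ± 0.24 (limma adjusted p = 0.012) and Plin1, a lipid droplet coat protein, by -0.71 (adjusted p = 0.35). Among 20 listed regulators of adipokine genes, Pparg, Cebpa and Stat5a were called lower and none higher, where 0.234% and 0.0316% of all genes were. Pparg, the master regulator of fat cell differentiation, gave 5.84 and 5.87 in MED1-KO cells on day 2 and 7.94 and 7.80 in WT cells (log2 fold change -2.01 ± 0.13, limma adjusted p = 0.00037). Cebpa, its partner, differed by -1.36 ± 0.13 (adjusted p = 0.0039). The part of these markers and regulators in the adipokine differences was not tested. In bulk RNA, fewer cells of a type and less RNA per cell cannot be told apart.

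In embryonic brown fat Nampt was lower in Myf5CreMed1f/f than in Myf5CreMed1f/w, Nrg4 and Adipoq were lower without overlap, and Agt was higher without overlap. Nampt alone passed, 1 of 9, where 0.5% of all genes were called lower. The groups did not overlap for 1 gene higher and 3 lower, where 8.56% and 6.83% of all genes did so. The median log2 fold change was -0.07 over the 9 genes and -0.01 over all genes.

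Nampt gave 9.92, 9.76, 9.65 and 9.55 in Myf5CreMed1f/f embryos, against 10.40, 10.25 and 10.39 in Myf5CreMed1f/w embryos. All 4 arrays with both alleles floxed lay below all 3 heterozygous arrays. The log2 fold change was -0.62 ± 0.09 (1.54-fold lower, limma adjusted p = 0.046), and the call was lost when any 1 of the 7 arrays was left out (adjusted p 0.058 to 0.14). Nrg4 gave 4.91, 5.05, 5.16 and 4.80 in Myf5CreMed1f/f and 5.67, 5.75 and 6.49 in Myf5CreMed1f/w. The heterozygous arrays were all higher, 1 of them by far, and the log2 fold change was -0.98 ± 0.20 (limma adjusted p = 0.067). Agt gave 6.37, 6.26, 6.11 and 6.21 in Myf5CreMed1f/f, against 5.97, 5.86 and 5.58 in Myf5CreMed1f/w. Every array with both alleles floxed was higher (log2 fold change 0.43 ± 0.11, limma adjusted p = 0.086).

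Adipoq was bright in all embryonic arrays, with 8.91, 8.88, 8.65 and 8.67 in Myf5CreMed1f/f and 8.97, 9.0 and 9.0 in Myf5CreMed1f/w (log2 fold change -0.21 ± 0.08, limma adjusted p = 0.2). The difference was small beside that of Nampt and did not pass. Retn gave 9.31, 8.97, 8.51 and 8.64 in Myf5CreMed1f/f and 9.45, 8.90 and 9.34 in Myf5CreMed1f/w. These overlapped (log2 fold change -0.37 ± 0.22, limma adjusted p = 0.4). Lep, Rbp4, Apln and Fgf21 overlapped too, with log2 fold changes of -0.07 to 0.14. Lep ranged over 4.08 to 5.01 in Myf5CreMed1f/f and 4.01 to 5.14 in Myf5CreMed1f/w, the widest spread of the 9 genes within each genotype. Fgf21 was dim, at 2.48 to 3.11 in Myf5CreMed1f/f and 2.86 to 2.98 in Myf5CreMed1f/w.

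**Figure D2:**
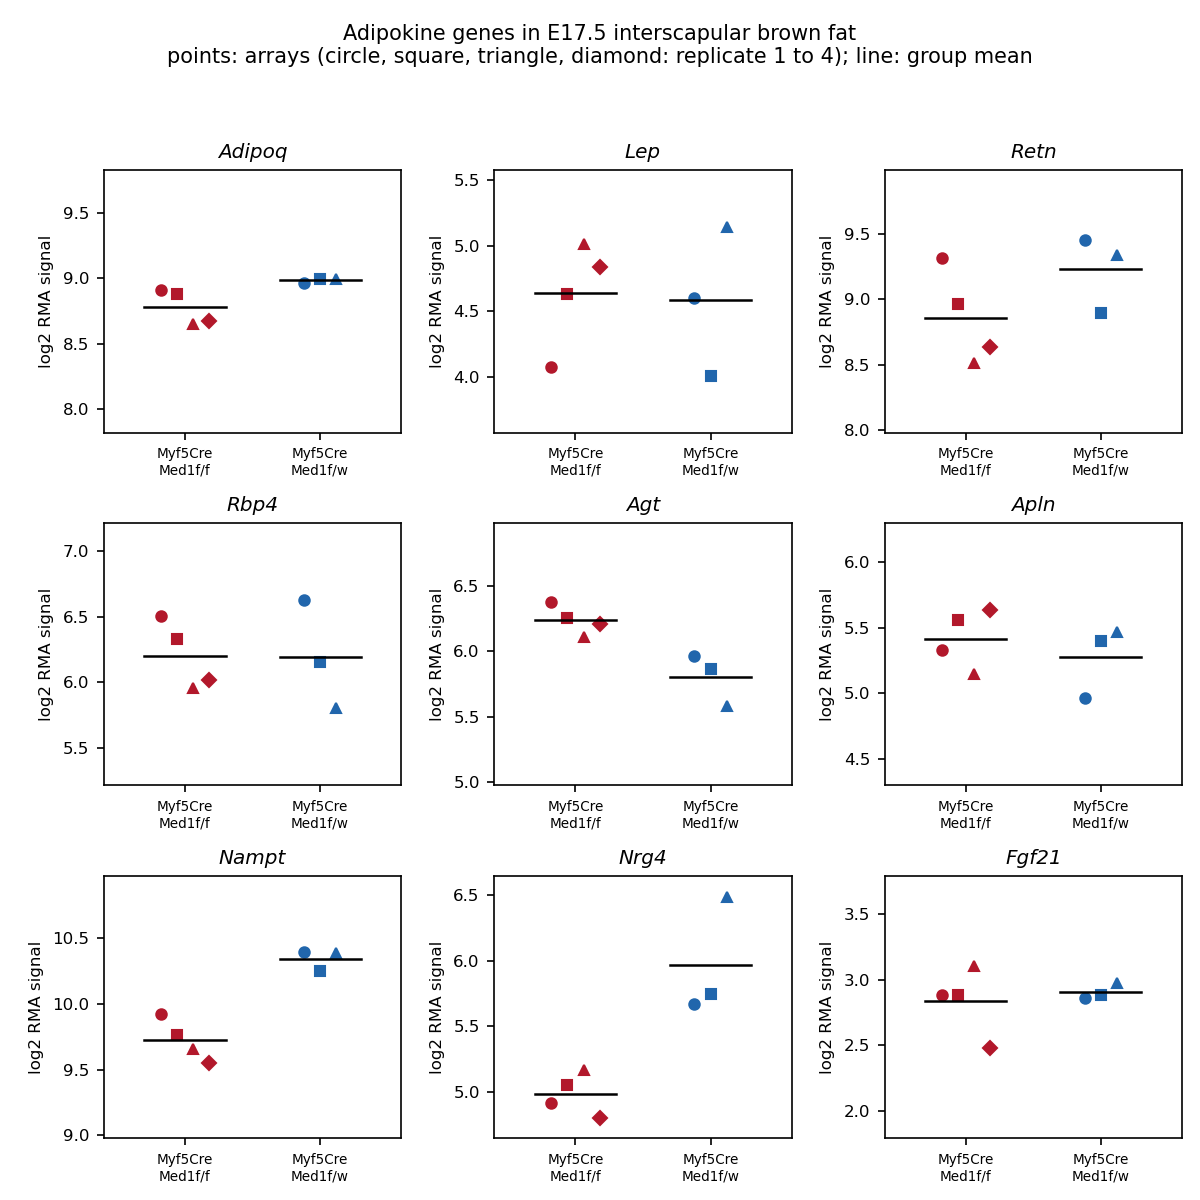
Log2 RMA signal of the 9 adipokine genes in interscapular brown fat at E17.5, 1 panel a gene (points are arrays, 4 of Myf5CreMed1f/f on the left and 3 of Myf5CreMed1f/w on the right; lines are group means). Nampt and Nrg4 lay lower, and Agt higher, in every Myf5CreMed1f/f array.

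In adult brown fat Retn had the widest gap of the 9 genes, and Nrg4, Nampt and Rbp4 were lower and Fgf21 and Adipoq higher in AdipoqCreMed1f/f without overlap. With 2 arrays a group, 0 of the 9 passed, where 0.0271% of all genes (6 of 22180) were called in either direction and 3013 (13.6%) had an unadjusted p under 0.05. Of the 9, limma gave 5 an unadjusted p under 0.05, namely Retn, Nrg4, Nampt, Rbp4 and Fgf21. The groups did not overlap for 3 genes higher and 4 lower, where 21.8% and 20.1% of all genes did so. The median log2 fold change was -0.92 over the 9 genes and 0.00 over all genes. Of the 9, 5 were lower and 4 higher, so this median is the smallest of the 5 decreases and does not describe the 9 as a group. Lep, among the 5, had an undetermined direction.

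Retn gave 6.69 and 5.99 in AdipoqCreMed1f/f mice, against 9.0 and 9.13 in Med1f/f mice. The gap between the groups exceeded the spread within them, with a log2 fold change of -2.73 ± 0.26 (6.61-fold lower) and a limma adjusted p of 0.052. With the replicate number as a block Retn passed (adjusted p = 0.044). Quantile normalization within the experiment, a filter on dim genes and a trended robust fit each put it past the threshold (Retn adjusted p 0.028 to 0.043), and without any 1 array it was 0.36 to 0.47. Nampt gave 8.99 and 9.01 in AdipoqCreMed1f/f and 9.86 and 10.28 in Med1f/f (log2 fold change -1.07 ± 0.18, limma adjusted p = 0.11). Nrg4 gave 6.14 and 6.38 in AdipoqCreMed1f/f and 7.10 and 7.26 in Med1f/f (log2 fold change -0.92 ± 0.15, limma adjusted p = 0.11). Both genes were lower in every knockout array, as in the embryos. Rbp4 gave 4.89 and 4.32 in AdipoqCreMed1f/f and 5.47 and 5.62 in Med1f/f (log2 fold change -0.94 ± 0.22, limma adjusted p = 0.17).

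Fgf21 went the other way, at 4.22 and 3.95 in AdipoqCreMed1f/f and 3.36 and 3.50 in Med1f/f (log2 fold change 0.66 ± 0.16, limma adjusted p = 0.18). Adipoq gave 9.52 and 9.59 in AdipoqCreMed1f/f and 9.30 and 9.25 in Med1f/f (log2 fold change 0.28 ± 0.13, limma adjusted p = 0.45). The adiponectin gene was thus not lower in the mice whose Cre its regulatory region drives, and its 95% interval was -0.05 to 0.61. Agt gave 4.07 and 4.15 in AdipoqCreMed1f/f and 3.90 and 4.31 in Med1f/f, which overlapped (log2 fold change 0.01 ± 0.18). Apln was dim, at 2.73 and 2.76 in AdipoqCreMed1f/f and 2.73 and 2.44 in Med1f/f.

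Lep varied more within the adult groups than between them. It gave 7.73 and 4.17 in AdipoqCreMed1f/f and 8.10 and 5.68 in Med1f/f. In each group replicate 1 was the higher array, and the 95% interval of the log2 fold change (-4.34 to 2.46) left its direction undetermined. A list of 6 white fat cell markers had means of 4.22 and 4.35 in AdipoqCreMed1f/f and 4.06 and 4.12 in Med1f/f.

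**Figure D3:**
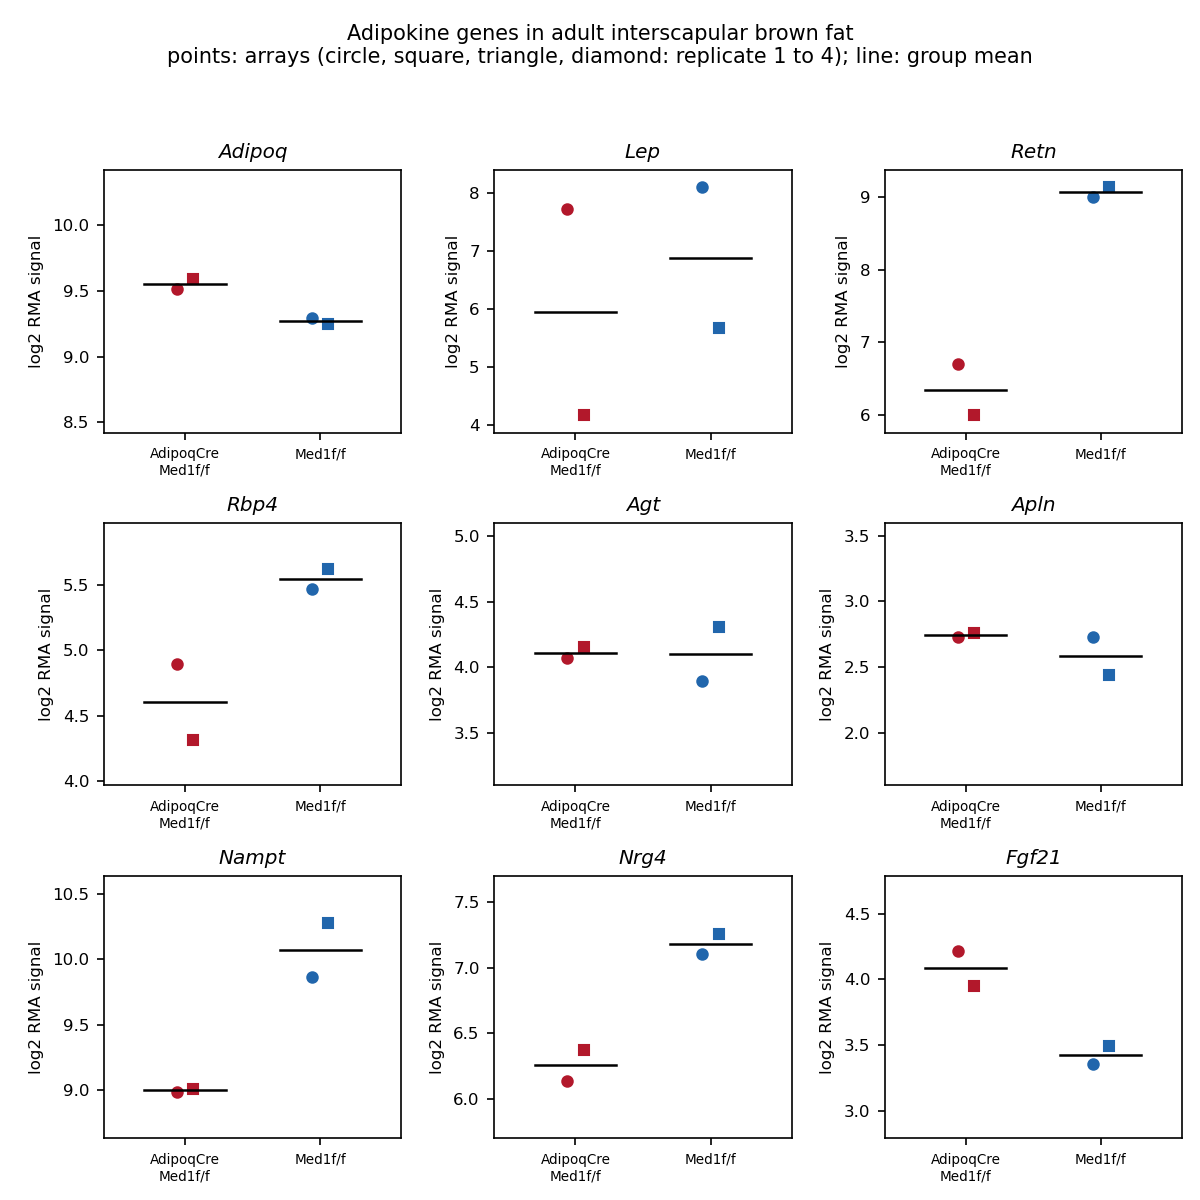
Log2 RMA signal of the 9 adipokine genes in interscapular brown fat at 10 weeks, 1 panel a gene (points are arrays, 2 of AdipoqCreMed1f/f on the left and 2 of Med1f/f on the right; lines are group means). Retn lay between 5.99 and 6.69 in AdipoqCreMed1f/f and between 9.0 and 9.13 in Med1f/f, and Lep spread over more than 2 log2 units within each group.

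The knockout effects in adult and embryonic brown fat were compared in 1 fit of 11 arrays, as the adult effect minus the embryonic effect. Retn passed, 1 of 9, where 0.703% of all genes were called lower. The difference was -2.35 ± 0.36 (limma adjusted p = 0.013), from effects of -2.73 in adults and -0.37 in embryos, and Retn was called under every alternative tried. The Cre driver, the age, the control genotype and the signal range of the arrays all differ between the experiments and cannot be told apart here. The effects of Nrg4 were close in the 2 models, at -0.92 in adults and -0.98 in embryos, with a difference of 0.06 and a 95% interval of -0.60 to 0.72. The Nampt effect was -1.07 in adults and -0.62 in embryos (difference -0.45 ± 0.19, limma adjusted p = 0.27). Adipoq differed by 0.49 ± 0.14 (adjusted p = 0.1) and Fgf21 by 0.73 ± 0.22 (adjusted p = 0.13).

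**Figure D4:**
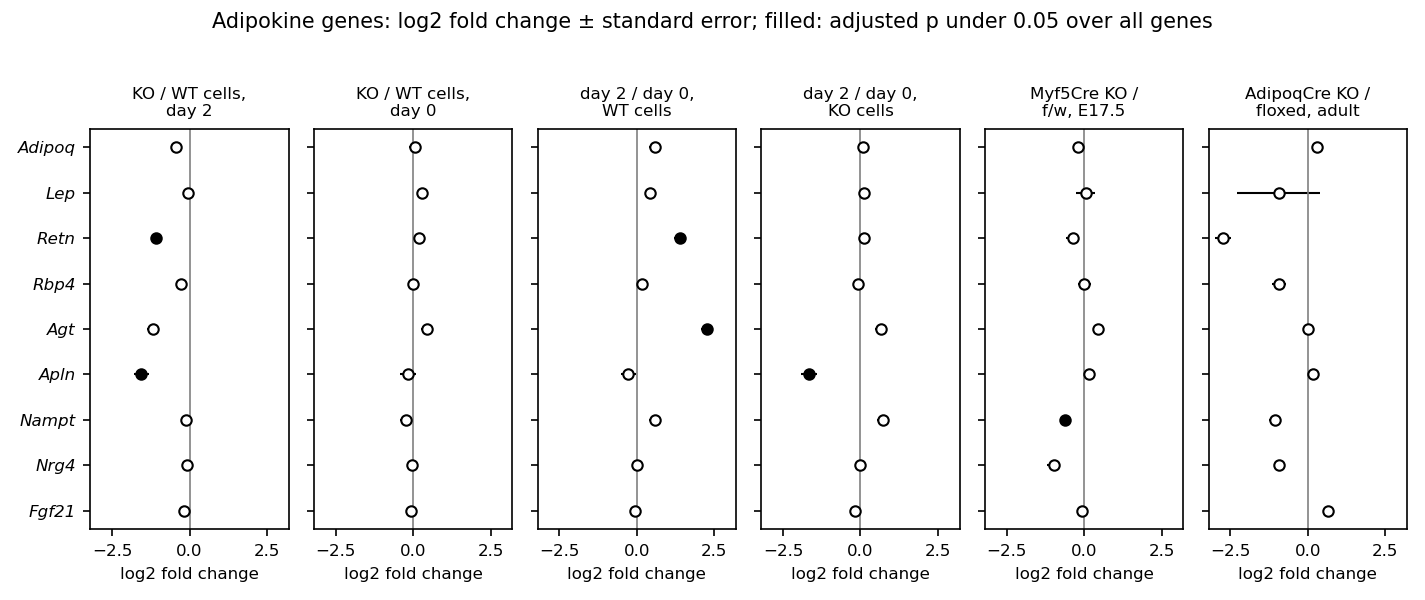
Log2 fold change of each adipokine gene with its standard error, 1 panel a comparison (filled points have an adjusted p under 0.05 over all 22180 genes, the grey line is no difference). Retn was filled on day 2 and in the WT response, Apln on day 2 and in the MED1-KO response, Agt in the WT response and Nampt in embryos, and the Retn point lay farthest left in adults.

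Markers of several cell types differed between the brown fat groups. The brown fat cell list (7 genes) had means of 6.42 to 7.01 in Myf5CreMed1f/f and 7.88 to 8.75 in Myf5CreMed1f/w. Of its genes Ucp1 and Dio2 were called lower (2 of 7, where 0.5% of all genes were). Ucp1, the heat-producing uncoupling protein, differed by -3.14 ± 0.40 (limma adjusted p = 0.044). The muscle list was higher for 8 of 8 genes with 0 called, at 7.56 to 7.78 in Myf5CreMed1f/f and 5.81 to 7.15 in Myf5CreMed1f/w, and the fibroblast list for 7 of 7, with Col1a1 and Col3a1 called, where 0.658% of all genes were called higher. The embryonic macrophage list was higher for 6 of 6 genes with 0 called, at 6.74 to 7.01 in Myf5CreMed1f/f and 6.35 to 6.65 in Myf5CreMed1f/w. In adults, the brown list had means of 7.34 and 7.91 in AdipoqCreMed1f/f and 8.83 and 9.66 in Med1f/f. There the fibroblast list was higher for 6 of 7 genes, at 7.22 and 7.41 in AdipoqCreMed1f/f and 6.73 and 6.99 in Med1f/f. The adult muscle list was lower for 7 of 8 genes, its arrays overlapped, and 0 genes of either list were called. The macrophage list was higher for 6 of 6 genes with 0 called, at 7.49 and 7.50 in AdipoqCreMed1f/f and 5.95 and 6.29 in Med1f/f. The mature fat cell list was 9.08 and 9.33 in AdipoqCreMed1f/f and 9.79 in each Med1f/f array, and in embryos 8.61 to 8.94 in Myf5CreMed1f/f and 9.14 to 9.67 in Myf5CreMed1f/w. None of its genes lay under an array's lower quartile in either tissue. The part of these markers in the adipokine differences was not tested. The list of 6 hepatocyte markers had means of 2.67 to 2.84 in Myf5CreMed1f/f and 2.85 to 3.02 in Myf5CreMed1f/w, and of 2.26 and 2.41 in AdipoqCreMed1f/f and 2.38 and 2.51 in Med1f/f, with 0 called. Between 1 and 4 of the 6 lay under the lower quartile on each of these arrays.

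**Figure D5:**
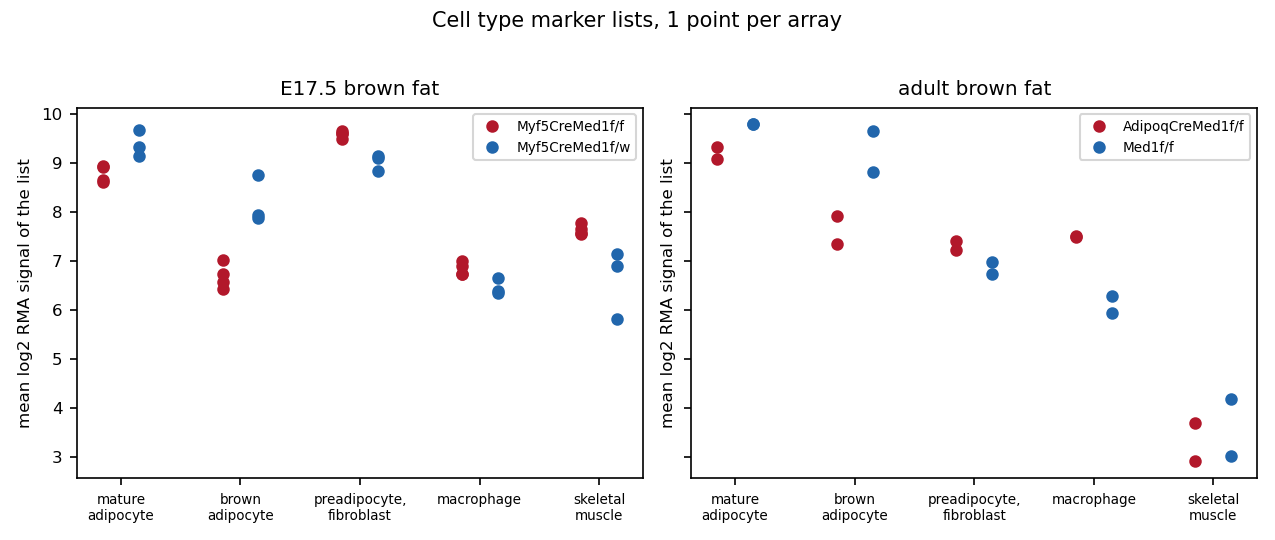
Mean log2 RMA signal of 5 cell type marker lists in embryonic (left) and adult (right) brown fat, 1 point an array, with the knockout left of its control in each pair. The brown fat cell list was lower, and the macrophage list higher, in every knockout array of both models.

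The receptors of these adipokines were measured for 16 of 16 listed genes. On day 2 Agtr2, the type 2 angiotensin receptor, was the one called, where 0.234% of all genes were called lower. It gave 5.75 and 5.99 in MED1-KO cells and 8.11 in each WT array (log2 fold change -2.24 ± 0.26, limma adjusted p = 0.012). On day 0 Agtr2 was not called, though lower without overlap, at 4.84 and 4.62 in MED1-KO cells and 6.16 and 5.20 in WT cells. Agtr2 rose with stimulation in both genotypes, by 2.43 ± 0.26 in WT cells (adjusted p = 0.00054) and by 1.14 ± 0.26 in MED1-KO cells (adjusted p = 0.035). In WT cells 5 of the 16 rose and 1 fell (Cap1, proposed as a resistin receptor), where 3.44% of all genes were called higher and 5.64% lower. In MED1-KO cells 4 rose and 0 fell, where the shares were 2.14% and 3.57%. Adipor2, an adiponectin receptor, rose by 1.47 ± 0.14 in WT cells (adjusted p = 0.00029) and by 1.22 ± 0.14 in MED1-KO cells (adjusted p = 0.0012). None of the 16 passed in embryos, in adults or in the difference between their effects. Lepr, the leptin receptor, lay under the lower quartile on all 8 cell arrays, and Aplnr, the apelin receptor, overlapped between MED1-KO and WT cells on day 2 (4.89 and 4.54 in MED1-KO, against 4.68 and 4.52 in WT). Erbb4, the NRG4 receptor, gave 3.49 and 3.82 in AdipoqCreMed1f/f and 5.13 and 4.96 in Med1f/f (log2 fold change -1.39 ± 0.17, limma adjusted p = 0.075).

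Of 16 genes listed for the processing of these proteins or the use of their products, 14 were measured. With stimulation, 2 rose and 1 fell in each genotype: Nmnat2, an NAD synthesis enzyme downstream of Nampt, and Furin, a protease of secreted precursors, rose, and Atp6ap2, the prorenin receptor, fell. Of all genes, 3.44% rose and 5.64% fell in WT cells, and 2.14% rose and 3.57% fell in MED1-KO cells. None passed between genotypes on day 0 or day 2, in embryos or in adults. Enpep, an aminopeptidase that cleaves angiotensin II, gave 8.68 and 9.18 in AdipoqCreMed1f/f and 6.55 and 6.43 in Med1f/f (log2 fold change 2.44 ± 0.20, limma adjusted p = 0.052). Its effect differed between adults and embryos by 2.22 ± 0.30 (adjusted p = 0.0061), one of 2 processing genes called higher there, with Atp6ap2 (0.54 ± 0.12, adjusted p = 0.05), where 1.28% of all genes were called higher. Of the 20 regulators, 8 rose and 2 fell in WT cells, where 3.44% and 5.64% of all genes did so, led by Pparg at 2.02 ± 0.13 (limma adjusted p = 4e-05). In MED1-KO cells 6 rose and 1 fell, where 2.14% and 3.57% of all genes did so, and Pparg rose by 0.80 ± 0.13 (adjusted p = 0.0063). In the brown fat comparisons none of the regulators passed within an experiment. The effect on Ppara, a lipid-sensing nuclear receptor, was lower in adults than in embryos by a difference of -2.17 ± 0.46 (adjusted p = 0.042). It was the one of the 20 called there, where 0.703% of all genes were called lower. Pparg differed by -0.31 in embryos (adjusted p = 0.11) and by -0.70 in adults (adjusted p = 0.14), and Cebpa gave 7.09 and 6.62 in AdipoqCreMed1f/f and 8.65 and 8.13 in Med1f/f (adjusted p = 0.11).

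For the 4 adipokine genes that passed in any comparison of genotypes or days, the genes with the most similar pattern were found over 19 arrays, by the root mean square difference in log2 signal after centring within each experiment. Dgat2 (0.34), Ppa1 (0.37) and Car3 (0.40) came nearest to Retn, whose own spread by this measure was 0.76. Dgat2, an enzyme of triglyceride synthesis, was lower in MED1-KO than in WT cells on day 2 (log2 fold change -1.05 ± 0.13, limma adjusted p = 0.016). Slc23a2 (0.26), Ctps (0.27) and Bmper (0.28) came nearest to Agt (own spread 0.59). Epb41l4b (0.31), Adh7 (0.32) and Gbgt1 (0.33) came nearest to Apln (own spread 0.52), and Ndufab1 (0.17), Pyurf (0.19) and Dbt (0.20) to Nampt (own spread 0.40). Ndufab1, a subunit of respiratory complex I, differed by -0.59 ± 0.09 in embryos (adjusted p = 0.046), beside -0.62 for Nampt. These genes were picked for their likeness on the same arrays, so similar differences follow from the choice and add no support.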

How the data were processed

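RNA was measured on 19 Affymetrix mouse arrays. Per the labels' protocols, Trizol was used to isolate RNA and the GeneChip WT PLUS kit to label it. The authors deposited 1 table of log2 values, and RMA and Transcriptome Analysis Console are listed, with no version, among the submitters' processing notes. RMA corrects background, equalizes the arrays it is run on and averages probes, which shrinks low signals. The genome build is not given in the sources used here.

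Of 41345 transcript clusters, the platform annotation gave 1 symbol for 23521, several for 1814 and none for 16010. For the 1082 genes with several clusters the one with the highest mean was kept, which left 22180 genes with no filter on dim signals. Differences on the log2 scale were tested with limma 3.58.1, run in R 4.3.3 (linear fits with eBayes, two-sided, Benjamini-Hochberg over all genes, threshold 0.05). Alternatives were the replicate block, days by the source label, renewed quantile normalization, a filter on dim genes, a trended robust fit, a fit of all 19 arrays and leaving out each array. Values after ± are standard errors unless SD is written. Day-specific cell tests shared a fit of 4 groups, the 4 MED1-KO and WT pairs were a block in their own fit, and each brown fat experiment had its own. Same-numbered MED1-KO and WT cell arrays deviated together (correlation 0.35 on day 0 and 0.30 on day 2), so results with the replicate block are given where they change a call. An "at least" fold sets a group whose arrays all lay under their own lower quartile (3.49 to 3.56 in cells) at that quartile. It compares group means and is not a confidence limit.

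The 9 genes, the lists of receptors, processing genes, other secreted proteins, regulators and cell type markers, the dim rule and the motifs were chosen with earlier results of these data known. The text names the 9 genes, Med1, Pparg, Cebpa, Fabp4, Plin1 and Ucp1 whatever their result, up to 6 called genes of a list per comparison, and the 3 nearest genes by pattern. Lepr, Aplnr, Erbb4, and Enpep where named without a call, fall outside this rule and were chosen after their values were seen. Depth does not apply to arrays, and their number limits the precision. The fits were also run on simulated data whose arrays varied independently, unlike the same-numbered cell arrays, and no result above rests on that run.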

Additional observations from a re-analysis of the deposited data

Results flagged for a closer look

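The effect of the Med1 knockout on Retn differed between the 2 brown fat models by a test of the difference itself, which is why it is given again here. The adult effect minus the embryonic effect was -2.35 on the log2 scale, with a standard error of 0.36 (limma adjusted p = 0.013). Retn averaged 6.34 in AdipoqCreMed1f/f against 9.07 in Med1f/f, and 8.86 in Myf5CreMed1f/f against 9.23 in Myf5CreMed1f/w. It was lower in 2 of 2 adult knockout arrays than in both controls, and the embryonic groups overlapped. For the 9 genes in the group of 4 Myf5CreMed1f/f arrays, Dixon's test marked no array as standing apart from the other 3.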

How the results depend on the processing

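Over all alternatives and the 9 genes, 769 values kept their direction and their side of the threshold, 28 passed it newly, 21 no longer passed, 56 values that were never called changed sign and 3 called values changed sign. Those 3 were with days by the source label: Retn -0.17 and Agt -0.23 in the WT response, and Apln 0.010 in the MED1-KO response. For day 2 the count of adipokine genes called was 2, and it was 1 with the replicate block, 0 by the source label, 2 after quantile normalization (Retn and Agt) and in the fit of 19 arrays (Agt and Apln), 3 with the filter on dim genes or the trended robust fit (Retn, Agt and Apln), and 0 to 0 without 1 array. For the WT response it was 2, with 0 by the source label and 4 in a fit of all 19 arrays. For the MED1-KO response it was 1, with 0 by the source label, 2 with the replicate block, a filter on dim genes or a trended robust fit, and 3 in the fit of 19 arrays. The genotype by day difference had 0, and 1 (Agt) in the fit of 19 arrays. Embryos had 1, with 0 under the replicate block, 2 after quantile normalization and in the fit of 19 arrays, 3 after the filter and 0 to 0 without 1 array. Adults had 0, with 1 (Retn) under the replicate block, quantile normalization, the filter and the trended fit, and 5 in the fit of 19 arrays.

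Over all genes, limma called 59 on day 2 and 12 to 38 without 1 array. It called 257 in embryos, with 1305 after the filter, 1527 in the fit of 19 arrays and 0 without any 1 array or with the block, where 2991 to 4548 still had an unadjusted p under 0.05. In adults it called 6, with 66 to 139 under the block, quantile normalization, the filter or the trended fit, 2049 in the fit of 19 arrays, and 0 without any 1 array, where 1984 to 2333 had an unadjusted p under 0.05. Over all alternatives the count was 9 to 245 for the 4 pairs (64 as reported), 1 to 88 on day 0 (41), 0 to 2555 in the WT response (2012), 0 to 1660 in the MED1-KO response (1265), 0 to 11 for the genotype by day difference (0) and 206 to 773 for adult minus embryonic effects (441). The causes of these shifts were not tested. The filter kept 11753 genes and 4 of the 9 in cells, 11181 genes and 8 of the 9 in embryos, and 11344 genes and 8 of the 9 in adults. In cells it asked for at least 2 arrays above the array's median gene. Retn stood highest on the 2 WT arrays of day 2 (5.77 and 5.78), and at most at 4.87 on the other cell arrays. Its day 2 call under the filter therefore adds no separate support. Same-numbered arrays correlated at 0.31, -0.02 and 0.11 in embryos, so those numbers share no pairing, and the block there could not use the fourth Myf5CreMed1f/f array. In adults same-numbered arrays correlated at 0.33, near the values in cells. Trials with other clusters of a gene were not run, since each of the 9 has 1.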

Other observations

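Of 30 other secreted proteins listed, 26 were measured. Lcn2, which encodes lipocalin 2, an acute-phase protein, rose after stimulation, by 5.20 ± 0.17 on the log2 scale in WT cells (limma adjusted p = 3.5e-06) and by 4.85 ± 0.17 in MED1-KO cells (adjusted p = 6.6e-06). In WT cells 4 of the 26 rose and 5 fell, where 3.44% and 5.64% of all genes did so. In MED1-KO cells 3 rose and 5 fell, where 2.14% and 3.57% did so. Vegfa, the vascular growth factor, rose by 1.72 ± 0.20 in WT cells and by 1.62 ± 0.20 in MED1-KO cells, and Pltp, a phospholipid transfer protein, fell by 2.48 and by 2.16. Retnla, a relative of Retn, was the one of the 26 called between genotypes on day 2, where 0.234% of all genes were called lower. It gave 2.88 and 2.55 in MED1-KO cells, under the lower quartile, and 3.70 and 3.68 in WT cells. Its mean was thus at least 1.12-fold lower (limma adjusted p = 0.037).

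In brown fat none of the 26 passed within the embryonic or the adult experiment. The adult effect minus the embryonic effect was called for 4 genes higher and 1 lower, where 1.28% and 0.703% of all genes were called. It was higher for Lcn2 (1.38 ± 0.25, limma adjusted p = 0.025), Bmp8b, a brown fat signal (1.89 ± 0.29, adjusted p = 0.013), and Pltp (1.51 ± 0.24, adjusted p = 0.015), and lower for Apoe, a lipoprotein component (-0.94 ± 0.21, adjusted p = 0.048). Retnla was the remaining call, and since it lay under the lower quartile on all 7 embryonic arrays, no size is given for its difference. In adults it gave 8.14 and 8.30 in AdipoqCreMed1f/f and 7.64 and 7.49 in Med1f/f, and macrophages are known to make it. Macrophage markers were higher in AdipoqCreMed1f/f too, and their part in the Retnla values was not tested.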
